A study of Caenorhabditis elegans with 6 samples.

Results

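The Wnt and beta-catenin asymmetry genes are a group of 10 genes that carry signals between cells of the embryo of the nematode Caenorhabditis elegans and make daughter cells differ. They are mom-1, mom-2, mom-4, mom-5, lit-1, pop-1, wrm-1, sys-1, bar-1 and apr-1. Rows of the deposited gene-annotated table whose gene symbol names one of them were taken, with every probe set kept. This gave 14 features (probe sets) for 9 of the genes. A further feature, 188110_s_at, carries a spreadsheet date in place of its symbol, and its title (APC related) and its sequence name, K04G2.8, belong to apr-1. With it there were 15 features for all 10 genes, of 22548 features on the array, and all results below include it unless stated.

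The study compared embryos that lack the microRNAs mir-35 to mir-41 with wild type embryos, both grown at 20 degrees Celsius. The mutant carries the deletion nDf50. Its strain is VT2935 after loss of nEx1187, whose name follows the nomenclature for extrachromosomal arrays. The wild type is the strain N2. Both groups were whole embryos of mixed stages, freed with hypochlorite from cultures fed egg yolk, and total RNA of 3 mutant and 3 wild type samples was hybridised to one Affymetrix array each. A free-text label line names narrower stages, in words not used for nematode development. It gives mutant replicates 1 and 2 a different stage from mutant replicate 3 and the wild type samples, and it was set aside. No label states that replicates were separate cultures, and the p-values therefore cover only the spread among these 6 arrays, part of which may be technical.

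In the early embryo the posterior cell P2 sends a Wnt signal to its neighbour EMS, which then divides into an endoderm founder and a mesoderm founder. The signal and many later divisions act on the TCF factor POP-1: the beta-catenin WRM-1 and the kinase LIT-1 drive POP-1 out of one daughter nucleus, while the beta-catenin SYS-1 serves there as its coactivator. Much of this asymmetry is set by where the proteins lie and how they are phosphorylated, which an mRNA array does not measure. In RNA from whole embryos, fewer cells of a type and less RNA per cell cannot be told apart.

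The arrays were not equally alike within the groups. The median intensity was 78.2 on wild type replicate 3 and between 86.3 and 94.5 on the other arrays. Wild type replicate 3 correlated with the other arrays at Pearson r of 0.944 to 0.971 over all features, in log2 intensity. Wild type replicate 2 correlated at 0.984 to 0.987 with the mutant arrays, and at 0.976 and 0.949 with wild type replicates 1 and 3. Mutant replicates 2 and 3 correlated at 0.998. The deletion cannot be read on these arrays, because 0 features name a deleted microRNA. Of the stage lists, the summed intensity of 12 maternal genes was 12631 to 13601 on the mutant arrays, 13480 on wild type replicate 2, and 19251 and 23406 on wild type replicates 1 and 3. Of these 12 genes 1 had a positive difference, where 6422 of 17138 genes did. The threshold of the genotype test was passed by 0 of the 12, where 0.152% of all genes passed. The sums of 9 measured early zygotic genes were 2225 to 2751 in the mutant and 2229 to 3294 in wild type, and those of 12 late embryonic genes 42077 to 45145 and 42611 to 61764. Sperm (10 genes) summed to 671 to 856 and 612 to 937, and yolk and adult body genes (7 genes) to 284 to 307 and 273 to 480.1. Wild type replicate 3 had the highest sum of every one of these lists, the stage lists included. The groups did not overlap for 3 of the 12 maternal, 4 of the 9 early zygotic, 3 of the 12 late embryonic, 2 of the 10 sperm and 1 of the 7 adult genes, where 15.7% of all genes, with 1 feature each, showed no overlap. The part of stage or of other material in the results below was not tested.

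None of the 10 genes passed the test of genotype. By limma with Benjamini-Hochberg adjustment over all features, 0 of the 15 features had an adjusted p under 0.05, where 0.129% of all features did, and the lowest adjusted p among the 15 was 0.456. An unadjusted limma p under 0.05 was found for 6 of the 15, against 10.2% of all features. These 6 belong to mom-4, mom-5, sys-1 and apr-1 and all had higher means in the mutant. All 3 mutant arrays lay on 1 side of all 3 wild type arrays for 1 of the 15, that of mom-5, where 15.5% of all features showed such a separation, 6.16% with the mutant higher and 9.37% with it lower. The 15 differences (log2 mutant minus log2 wild type) ran from -0.41 to 0.89, 7 of them positive, with a median of -0.07 and an interquartile range of -0.26 to 0.71. The median over all features was -0.10, with an interquartile range of -0.25 to 0.16. Without the apr-1 feature the median of the other 14 was -0.08.

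**Figure D1:**
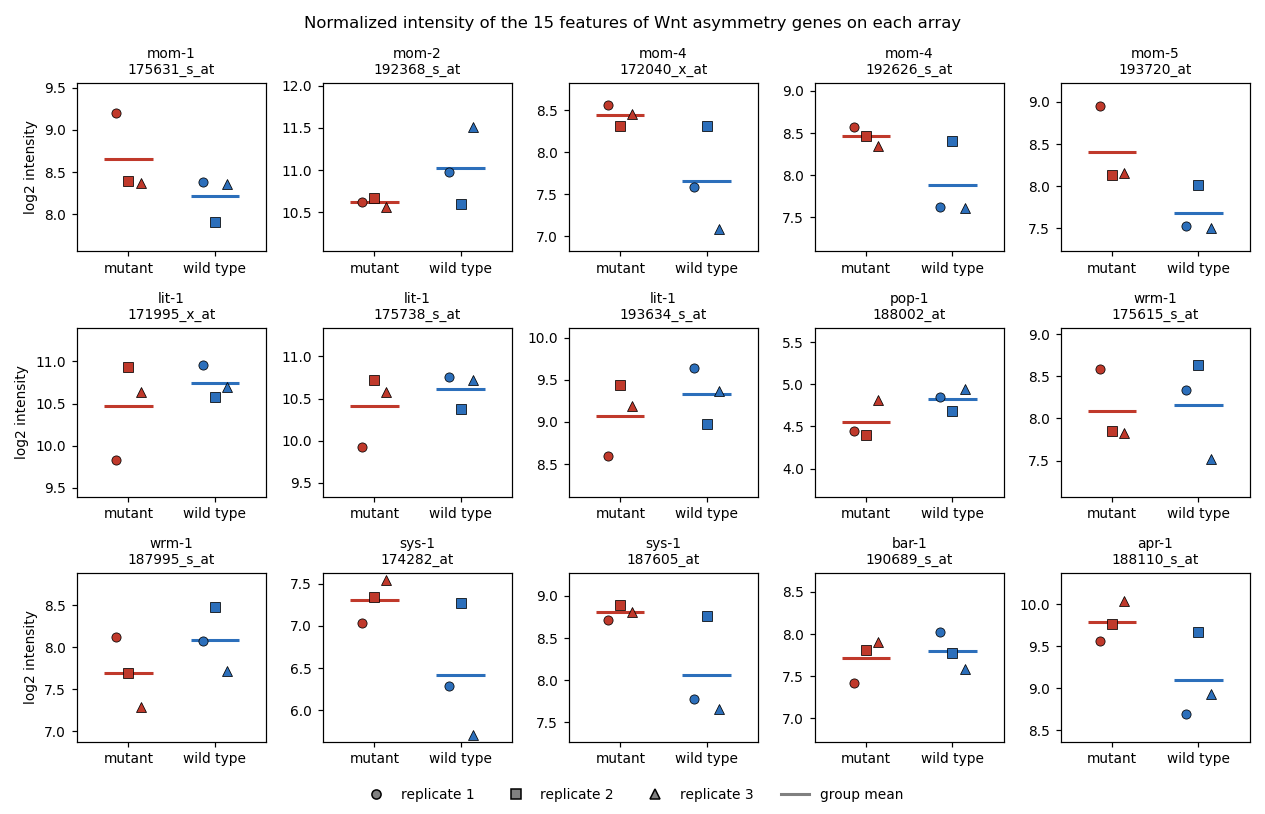
Log2 normalized intensity (vertical axes, each spanning 2 log2 units) of the 15 features on each array, with mutant arrays in red, wild type arrays in blue, marker shapes for replicates and a bar at the group mean. For sys-1, mom-4 and apr-1 wild type replicate 2 lies with the mutant arrays and wild type replicates 1 and 3 lie below; for lit-1 mutant replicate 1 lies below all other arrays.

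The secretion of the signal was represented by mom-1, which encodes a Porcupine-type membrane acyltransferase needed to make active Wnt protein. With replicates 1, 2 and 3 in order, here and below, its intensity was 590.5, 337 and 332 in the mutant and 333, 241 and 327 in wild type. Mutant replicate 1 was the highest of the 6, and mutant replicates 2 and 3 were level with wild type replicates 1 and 3, so that the groups overlapped. The difference was 0.44 ± 0.27 (log2 ± SE, 95% confidence interval -0.18 to 1.07, adjusted p = 0.577). Without mutant replicate 1 it was 0.17, so most of its size rested on that array.

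The ligand gene mom-2 encodes the Wnt that P2 presents to EMS. Its intensity was 1579.7, 1626 and 1512 in the mutant and 2009, 1544 and 2908 in wild type. The mutant arrays lay close together, wild type replicate 2 lay among them, and wild type replicates 1 and 3 were the highest. The difference was -0.40 ± 0.24, with an interval of -0.97 to 0.16 and an adjusted p of 0.575. It was -0.16 without wild type replicate 3 and 0.03 when wild type replicates 1 and 3 were both left out, an alternative added after the data were seen. The same wild type arrays had the high summed maternal level given above.

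The receptor gene mom-5 encodes a Frizzled protein on the receiving cell. It measured 494, 279.9 and 284 in the mutant and 185, 259 and 182 in wild type. Every mutant array was above every wild type array, and wild type replicate 2 came nearest to mutant replicates 2 and 3. The mean was 1.65-fold that of wild type, a difference of 0.73 ± 0.27 (interval 0.10 to 1.36, adjusted p = 0.456). Without mutant replicate 1, the highest array, the difference was 0.46 with an adjusted p of 0.546.

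The kinase branch begins with mom-4, a MAP kinase kinase kinase related to TAK1 that activates LIT-1. Its feature 192626_s_at measured 382, 355 and 325 in the mutant and 196, 338 and 196 in wild type. The second feature, 172040_x_at, measured 377, 316.5 and 351 in the mutant and 192, 317 and 136 in wild type. On both, wild type replicate 2 lay within the mutant values and wild type replicates 1 and 3 lay well below, so the groups overlapped. The differences were 0.59 ± 0.24 (interval 0.02 to 1.15, adjusted p = 0.485) and 0.78 ± 0.30 (interval 0.08 to 1.48, adjusted p = 0.464). The features of 1 gene share its mRNA and are no replicates of one another. Affymetrix marks probe sets with the ending x_at where probes may match other transcripts.

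The Nemo-like kinase gene lit-1, whose product binds WRM-1 and phosphorylates POP-1, showed a different arrangement. The feature 171995_x_at measured 913, 1961 and 1589.8 in the mutant and 1993, 1526 and 1666 in wild type. The feature 175738_s_at measured 970.4, 1692 and 1533 in the mutant and 1725, 1325 and 1684 in wild type, and 193634_s_at measured 386, 694 and 584 against 798, 503 and 663. On all 3 features mutant replicate 1 was the lowest array, 1.74-fold to 2.15-fold below the highest mutant array, while the other 5 arrays overlapped. The differences were -0.28 ± 0.29, -0.20 ± 0.25 and -0.26 ± 0.27, with adjusted p of 0.674, 0.705 and 0.676. Without mutant replicate 1 they were 0.04, 0.04 and -0.02, so the lower mutant mean of lit-1 rested on that array.

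Of the beta-catenin genes, sys-1 had the largest difference in this group of genes. Its feature 187605_at measured 421, 474 and 448 in the mutant and 219, 433 and 201 in wild type. The feature 174282_at measured 131, 163 and 187 in the mutant and 78.2, 154 and 52.2 in wild type. Wild type replicate 2 again lay with the mutant arrays and the other wild type arrays lay below all of them. The differences were 0.74 ± 0.29 (interval 0.06 to 1.43, adjusted p = 0.472) and 0.89 ± 0.38 (interval 0.01 to 1.76, adjusted p = 0.489). Within wild type the highest array was 2.15-fold and 2.95-fold the lowest on the 2 features, more than the 1.68-fold and 1.85-fold between the group means.

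The beta-catenin gene wrm-1, whose product acts with LIT-1 on POP-1, varied within both groups. Its feature 175615_s_at measured 385, 232 and 226 in the mutant and 324, 396 and 183 in wild type. Its feature 187995_s_at measured 278, 207 and 156 in the mutant and 269, 355 and 210.2 in wild type. Wild type replicate 2 was the highest array on both, and the groups overlapped throughout. The differences were -0.07 ± 0.33 (interval -0.85 to 0.71) and -0.39 ± 0.28 (interval -1.03 to 0.25), with adjusted p of 0.922 and 0.598. The first was 0.16 without wild type replicate 2, so that its direction depends on which array is left out.

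The beta-catenin gene bar-1, known from later Wnt responses such as larval neuroblast migration and vulval development, measured 171, 225 and 241 in the mutant and 261, 219 and 192 in wild type. The groups overlapped and the difference was -0.08 ± 0.20, with an interval of -0.55 to 0.39 and an adjusted p of 0.850. The farther end of this interval lies nearer to 0 than that of any other of the 15 features.

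The gene apr-1 encodes a protein related to the tumour suppressor APC, which acts with WRM-1 at the cell cortex. It measured 758, 871 and 1053 in the mutant and 415, 811 and 491 in wild type. Wild type replicate 2 lay among the mutant arrays and wild type replicates 1 and 3 below them, as for mom-4 and sys-1. The difference was 0.69 ± 0.27, or 1.62-fold, with an interval of 0.05 to 1.33 and an adjusted p of 0.474.

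The TCF gene pop-1, on which all these branches converge, was measured by 1 dim feature. It read 21.8, 21.0 and 28.1 in the mutant and 28.8, 25.7 and 30.7 in wild type. These values lay near the lower quartile of the arrays, which was between 24.8 and 29.4, and mutant replicate 3 lay among the wild type arrays. The difference was -0.27 ± 0.18, with an interval of -0.70 to 0.15 and an adjusted p of 0.590. At so low a signal a change of the transcript may be understated.

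**Figure D2:**
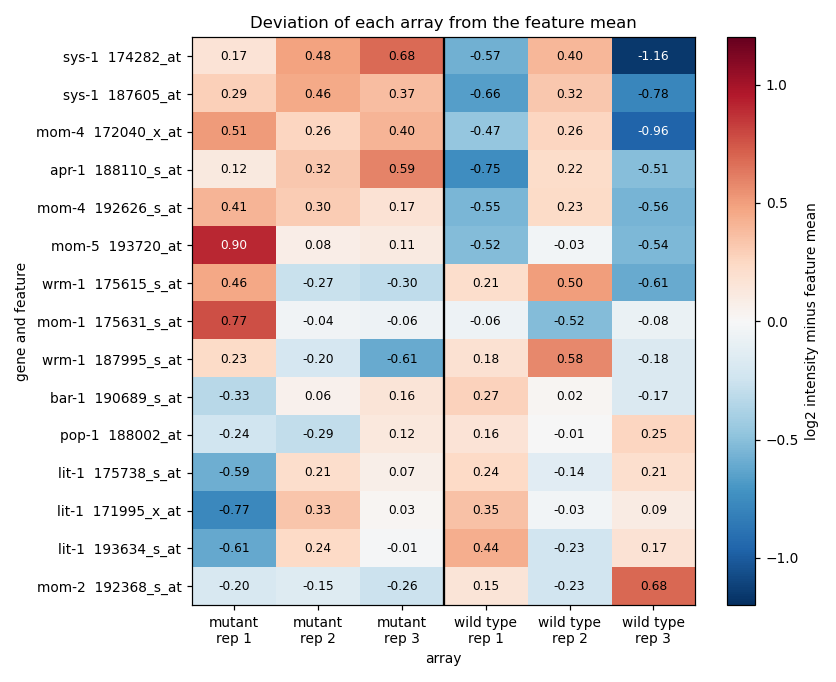
Log2 intensity of each array minus the mean of that feature over the 6 arrays (colour and printed value), with features in rows, sorted by the sum for wild type replicates 1 and 3, and arrays in columns. The top 6 rows, of sys-1, mom-4, apr-1 and mom-5, are lowest on wild type replicates 1 and 3, and the 3 lit-1 rows are lowest on mutant replicate 1.

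Across arrays the features fell into different arrangements rather than one shared shift. Wild type replicates 1 and 3 were the lowest of the 6 arrays on 6 of the 15 features, those of sys-1, mom-4, mom-5 and apr-1, compared with 13.8% of all features. They were the highest on 2, those of mom-2 and pop-1, compared with 24.4% of all features. With 1 feature a gene, they were the lowest on 4 of the 10 genes. The same held for 9 of the 38 further pathway genes described below and for 13.9% of all genes. Mutant replicate 1 was the lowest on 4, those of lit-1 and bar-1, and the highest on 4, those of mom-1, mom-4 and mom-5, compared with 13.3% and 13.1% of all features. As a description over 6 arrays that share these differences, and with 1 feature a gene, mom-4 correlated with sys-1 at 0.971 and with apr-1 at 0.881, and sys-1 with apr-1 at 0.939. The ligand mom-2 ran opposite to them, at -0.903 with sys-1 and -0.858 with mom-4. The features of 1 gene ran together, at 0.947 to 0.965 for lit-1, 0.963 for sys-1 and 0.948 for mom-4, and less closely for wrm-1, at 0.823.

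For 13 of the 15 features the range among wild type arrays exceeded the difference between the genotype means, mom-5 and pop-1 being the other features. For the number of these 15 features past the threshold, the single array whose removal changed the count was wild type replicate 2. Without it 5 of the 15 features passed the threshold, all higher in the mutant, where 5.72% of all features passed and 4.86% passed as higher. They were the 2 features of sys-1, at 1.09 ± 0.16 (adjusted p = 0.0172) and 1.31 ± 0.25 (0.0351), and the 2 of mom-4, at 0.85 ± 0.16 (0.0356) and 1.11 ± 0.21 (0.0335). The last was apr-1, at 0.97 ± 0.20 (0.0446). The receptor gene mom-5 did not pass there, at 0.89 ± 0.28 (adjusted p = 0.124). With array weights, whose estimation stopped before convergence, 10 of the 15 features passed, but so did 60.5% of all features. Against wild type replicate 2 alone, the differences of sys-1 were 0.05 and 0.04, those of mom-4 0.06 and 0.13, and that of apr-1 0.13. The wild type arrays on which these 3 genes were low are those with the high summed maternal level, and whether the 2 go together was not tested.

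**Figure D3:**
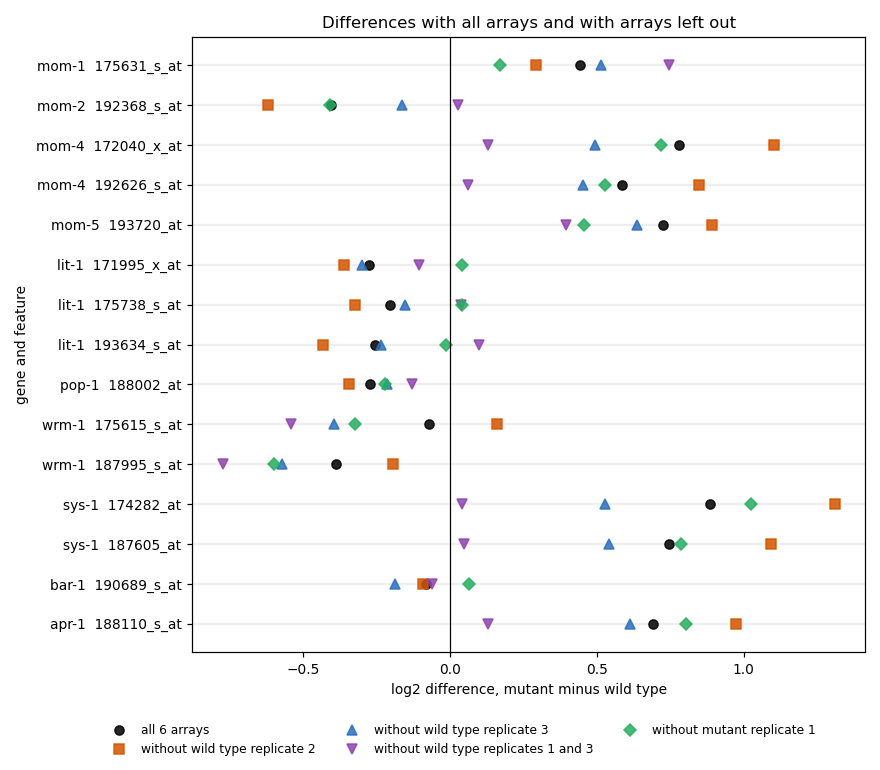
Log2 difference, mutant minus wild type (horizontal axis), of the 15 features with all 6 arrays and with the named arrays left out (marker shapes and colours). For sys-1, mom-4 and apr-1 the values spread from near 0, against wild type replicate 2 alone, to between 0.85 and 1.31 without that array.

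In the genome, 5 of the 10 genes lie on chromosome I, and 3 of them lie close together. In the RefSeq gene table of assembly WBcel235, 16 protein-coding genes separate mom-4 from mom-5 and 3 separate mom-5 from sys-1. The gene apr-1 is 415 protein-coding genes from mom-4, and pop-1 is 1091 from apr-1. All 6 features that were lowest on wild type replicates 1 and 3 name chromosome I genes, and pop-1, on the same chromosome, was highest on those arrays. Over 2372 measured genes of chromosome I the median difference was -0.10, as over all genes, and 18.7% were lowest on these 2 arrays, compared with 13.9% of all genes.

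The rest of the pathway was described with 39 further listed names, 38 of which matched a feature. The names of features were updated but those of the list were not. No feature carried the name imb-4, and whether that gene was measured under another name was not checked. Each gene was represented by its feature with the highest mean. None of the 38 passed the threshold by limma, where 0.152% of all genes did, and the lowest adjusted p was 0.323. An unadjusted p under 0.05 was found for 8, against 10.6% of all genes. The median difference was -0.16, and 15 were positive. The groups did not overlap for 13 of the 38, 11 with the mutant lower and 2 with it higher, where 9.36% and 6.38% of all genes did so.

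Among the 4 other Wnt ligand genes, lin-44 measured 306, 196 and 159 in the mutant and 384, 332 and 344 in wild type, with no overlap (-0.73 ± 0.25, adjusted p = 0.441). The ligand gene cwn-1 also had no overlap, at 908, 839.6 and 804 against 1401, 1576 and 985 (-0.61 ± 0.21). The 3 wild type arrays lay close together on lin-44, and wild type replicate 2 was the highest array on cwn-1. By contrast cwn-2 measured 244, 324 and 343 in the mutant and 124, 430.4 and 134 in wild type (0.64 ± 0.46). Wild type replicates 1 and 3 were its lowest arrays, as for sys-1 and mom-4, but wild type replicate 2 was its highest. The difference of egl-20 was -0.15 ± 0.18.

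Of the genes that move Wnt proteins through the secreting cell, mig-14, the Wntless carrier, measured 557, 556 and 492 in the mutant and 956, 692 and 1117 in wild type. Every mutant array was below every wild type array, and the mean was 1.69-fold lower (-0.76 ± 0.21, adjusted p = 0.323). The retromer gene vps-35, needed to recycle that carrier, had a difference of 0.60 ± 0.24 and the sorting nexin gene snx-3 one of 0.13 ± 0.22. Without wild type replicate 2, mig-14 (-0.95 ± 0.17, adjusted p = 0.0294) and cwn-2 (1.22 ± 0.20, adjusted p = 0.0243) passed the threshold, the only genes of these 38 to do so, where 5.89% of all genes passed.

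Of the 6 receptors other than mom-5, 5 had lower means in the mutant, as did 10716 of 17138 genes. The Frizzled genes mig-1 and lin-17 differed by -0.47 ± 0.19 and -0.45 ± 0.20, the planar polarity gene vang-1 by -0.45 ± 0.21 and the Ror kinase gene cam-1 by -0.33 ± 0.17. The Ryk gene lin-18 differed by -0.20 ± 0.20 and the Frizzled gene cfz-2 by 0.01 ± 0.15. Groups did not overlap for 3 of these 6, all with the mutant lower, where 9.36% of all genes did so. The Dishevelled genes dsh-1, dsh-2 and mig-5, which relay the signal from the receptor, differed by 0.39 ± 0.23, -0.17 ± 0.20 and -0.05 ± 0.18.

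The 4 genes listed here for the complex that degrades beta-catenin, without the APC-related apr-1, had negative differences, as did 14029 of 22548 features. Wild type replicates 1 and 3 were the highest arrays on all 4, against 24.6% of all genes. Over all 38 further pathway genes they were the highest on 11, or 28.9%. These arrays had the high summed maternal level, whose part in this was not tested. The 4 genes were kin-19, a casein kinase I (-0.69 ± 0.25, adjusted p = 0.446), the Axin genes pry-1 (-0.39 ± 0.17) and axl-1 (-0.16 ± 0.17), and gsk-3 (-0.31 ± 0.24). The APC-related gene apr-1 ran the other way, at 0.69 ± 0.27, with wild type replicates 1 and 3 the lowest arrays. The gene hmp-2, the beta-catenin of cell junctions, differed by -0.42 ± 0.16, with no overlap between 673, 604 and 598 in the mutant and 852, 762 and 896 in wild type. The 5 features of the other beta-catenin genes sys-1, wrm-1 and bar-1 overlapped between the groups.

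The partners that act on POP-1 in the nucleus or on its regulators had differences of -0.21 to 0.35. They were the coactivator gene cbp-1 (0.33 ± 0.49), the Groucho gene unc-37 (0.29 ± 0.31), the 14-3-3 gene par-5 (-0.21 ± 0.21), the nuclear export gene xpo-1 (0.06 ± 0.27) and the ubiquitin ligase gene lin-23 (0.35 ± 0.18). The MOM-4 partner gene tap-1 differed by 0.23 ± 0.25. For the signal that acts on EMS beside Wnt, src-1 differed by 0.23 ± 0.26 and mes-1 by 0.47 ± 0.22. Without wild type replicate 3, unc-37 was at -0.05, src-1 at -0.04, cbp-1 at 0.05 and tap-1 at 0.04. In the same fit mes-1 was at 0.43, lin-23 at 0.24, xpo-1 at 0.03 and par-5 at -0.01.

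Genes reported as targets of Wnt or POP-1 had differences of both signs. The endoderm GATA genes end-1 and end-3, which are activated in the EMS daughter that receives the signal, differed by -0.03 ± 0.27 and -0.15 ± 0.18. The end-1 values were 501, 439.5 and 492 in the mutant and 386, 405 and 743 in wild type, so that wild type replicate 3 was highest and the other wild type arrays were lowest. The homeobox genes mab-5 (0.54 ± 0.27) and ceh-22 (0.47 ± 0.21) had positive differences and the zinc finger gene tlp-1 a negative one (-0.61 ± 0.24). The seam cell GATA genes egl-18 and elt-6 differed by -0.33 ± 0.19 and 0.01 ± 0.15, and psa-3 and ttx-3 by -0.26 ± 0.16 and -0.26 ± 0.17. Of the 9 target genes 0 passed the threshold, and 1, tlp-1, had an unadjusted limma p under 0.05, where 0.152% and 10.6% of all genes did so. The groups did not overlap for 3 of the 9, against 15.7% of all genes. Without wild type replicate 3 the difference of end-1 was 0.27 and that of elt-6 was -0.03.

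**Figure D4:**
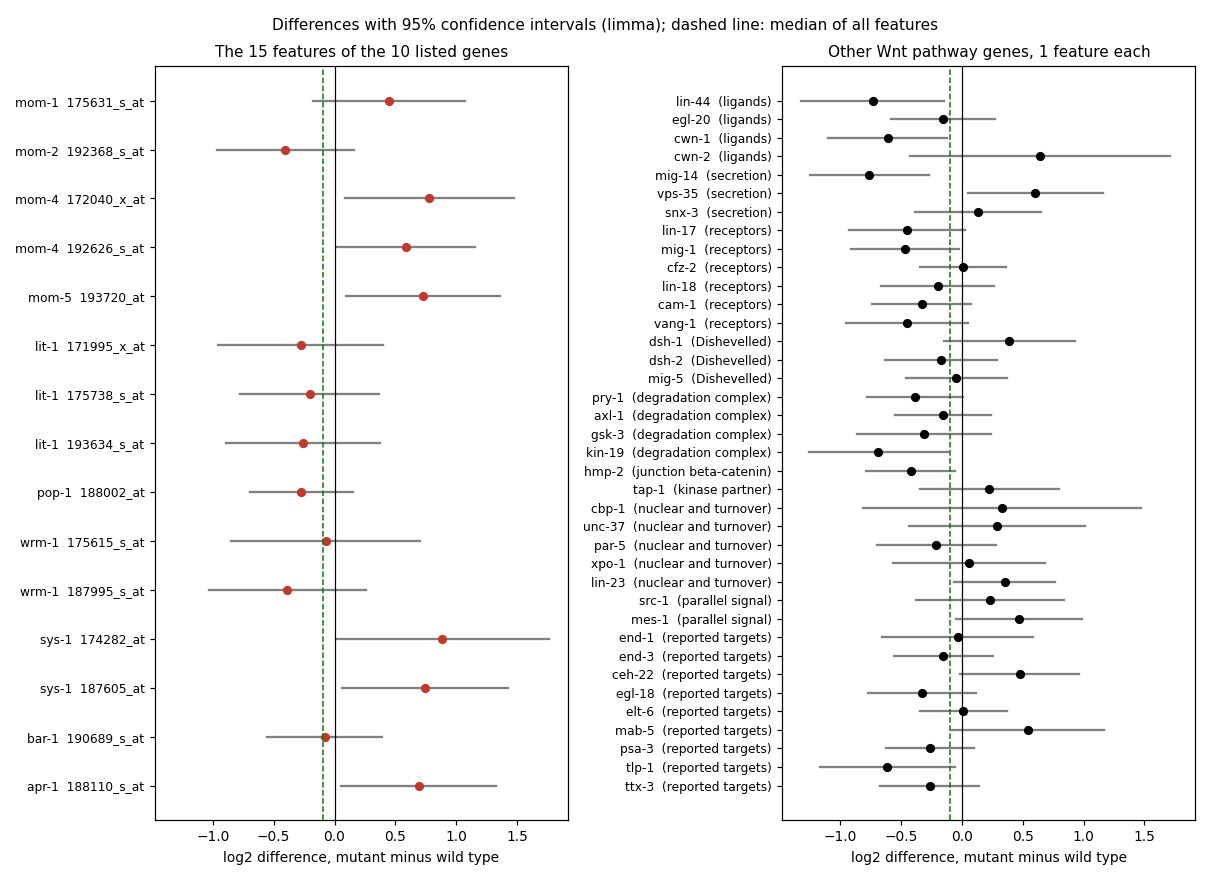
Log2 difference, mutant minus wild type, with 95% confidence intervals from limma (n = 3 arrays per group), for the 15 features (left) and 38 other pathway genes (right, with their role). The dashed line is the median of all features, -0.10; intervals of 9 of the 15 features include 0, and no feature in either panel passed the adjusted threshold.

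The features whose values across the 6 arrays were most like those of pop-1 were those of C14B4.2, far-4 and kin-24, with Pearson r of 0.973, 0.95 and 0.949 in log2 intensity. A correlation above 0.95 with pop-1 was found for 2 of 20864 single-gene features. For wrm-1 the closest were Y73C8B.3, C47F8.1 and fbxc-24 (0.995, 0.993 and 0.992), among 94 features above 0.95. For mom-2 they were R10F2.6, Y69A2AR.24 and F20D6.1 (0.999, 0.999 and 0.998), among 1352 above 0.95. Wild type replicate 3, highest for mom-2 and lowest for the wrm-1 feature used here, is shared by all these correlations.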

How the data were processed

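One table holds the intensity of each probe set, normalized by the authors and deposited on a linear scale. A series table holds deposited log2 values, which are the log2 of the same intensity (largest gap 5.63e-06). Affymetrix Expression Console is the only program in the submitters' processing notes. For its version, background correction and summary steps the entry is: not given in the sources used here. Whether a shift shared by most genes was removed is therefore unknown. Columns were matched to samples by description and title, and 0 columns of values were left without a sample. After removal of 77 control probe sets, log2 intensity of 22548 features, with no filter, was compared by limma 3.58.1 in R 4.3.3 (lmFit, eBayes, two-sided, no block), adjusted by Benjamini-Hochberg across these features, at a threshold of 0.05. The number of arrays, 3 per group, limits the precision. Names were updated through RefSeq (WBcel235): 20865 features name 1 gene, 687 several and 996 none, and the genes with 1 feature chosen number 17138. Symbols in date form were resolved by sequence name. Every member feature and every measured gene of the wider Wnt list is named, and for pop-1, wrm-1 and mom-2 the 3 most correlated features. Members and lists were chosen with earlier results of these data known. The fit was also run on simulated data with independent noise for each feature and array, which hold no differences shared across an array as seen here. There were 17 alternatives.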

Additional observations from a re-analysis of the deposited data

How the results depend on the processing

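With all arrays, 29 features in all, 0 of the 15 member features and 0 of 48 Wnt genes passed. Leaving out 1 array gave 0 to 1289, 0 to 5 and 0 to 5, and member medians of -0.15 to 0.16, against -0.07. The counts of 5 came without wild type replicate 2. Without mutant replicate 1, 2 or 3, limma gave 0 calls in all and 2203, 1151 and 1008 features at an unadjusted p under 0.05. Over all features, other counts were 19 with the replicate block, 3 after quantile normalization again, 50 after centring, 8 with 16 added and 46 with a trend and robust prior. Counts were 0 with mutant replicates 2 and 3 averaged (1059 at an unadjusted p under 0.05) and 0 with wild type replicates 1 and 3 left out together (2204), a fit whose spread comes from the mutant arrays and assumes that the lone wild type array varies like them. Array weights gave 13639 calls, or 60.5%, with 10 member features and 33 Wnt genes; their estimation stopped before convergence. Gene-by-gene weights, added after seeing the data, gave 3608 of 22548, with 5 and 15. The member median was -0.20 after centring, 0.19 with dim features, pop-1 among them, removed, and 0.0521 with mutant replicates averaged. Directions turned for wrm-1 175615_s_at (0.0521 with mutant replicates averaged, -0.40 to 0.16 with 1 array left out). Without wild type replicates 1 and 3 they turned for mom-2 (0.0259) and lit-1 (0.0381 for 175738_s_at, 0.0976 for 193634_s_at). With 1 array left out the ranges were -0.51 to 0.0400 and -0.36 to 0.0394 for lit-1 171995_x_at and 175738_s_at and -0.19 to 0.0656 for bar-1. Of 254 single-feature values under alternatives, 222 kept direction and side of the threshold. Same-numbered arrays deviated together with r of -0.03, 0.07 and -0.18, and differently numbered arrays with -0.22 to 0.30. With 3 arrays per group these values cannot decide whether the numbers pair the samples. The block left the member calls at 0, as they were without it. The causes were not tested.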

Other observations

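The measured genes between mom-4 and sys-1 on chromosome I, other than mom-5, number 14 of 19. Their median difference was 0.09, with 8 positive, where 6422 of 17138 genes were positive. By limma 0 passed the threshold, where 0.152% of all genes did, and 3 had an unadjusted p under 0.05, against 10.6%. Of the 14, 5 were lowest on wild type replicates 1 and 3, as were mom-4, mom-5 and sys-1, against 13.9% of all genes. On the same arrays 3 were highest, against 24.6% of all genes. The groups did not overlap for 4 of the 14, 2 with the mutant higher and 2 with it lower. Of all genes 6.38% and 9.36% did so. The translation initiation factor gene eif-3.C, chosen after its values were seen, measured 1205, 1072 and 1127 in the mutant and 652, 1127 and 447 in wild type. T24D1.3, which lies in the same stretch and was also chosen after its values were seen, ran the other way, at 67.2, 74.9 and 77.1 in the mutant and 257, 102 and 166 in wild type (log2 difference -1.16).

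Of the deposited features, 5 carry a date in place of a gene symbol, as a spreadsheet writes it, and the feature of apr-1 is one of them. A search by symbol alone therefore misses apr-1.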
